A study of Homo sapiens with 6 samples.

Results

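The 245 circular RNAs that map to human chromosome 18 are described here, out of 9857 listed for BEAS-2B, a virus-immortalised line derived from normal human bronchial epithelium. They are all the circular RNAs (circRNAs) whose deposited position lies on chromosome 18, taken once per identifier. The chromosome was chosen with its response to cadmium known, so the values that compare the groups are given as a description of its circRNAs, and no test of the chromosome as a whole is made. The cadmium group (labelled T-BEAS-2B, 3 libraries) was kept in 2.0 µM cadmium for 20 weeks, and the control group (labelled C-BEAS-2B, 3 libraries) in 0.0 µM for 20 weeks. All 6 libraries came from the same cell line, grown in DMEM with fetal bovine serum, with treatment started 6 hours after seeding and subculture every 3 days. No genotype or added gene distinguishes the groups. Before strand-specific sequencing, ribosomal RNA was taken out and RNase R was used to digest linear RNA. Nothing in the labels states that replicates were separate cultures, so p-values here reflect the spread among 6 libraries, part of which may be technical. The question the design addresses is which circRNAs differ in abundance after long cadmium exposure.

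A circRNA forms by back-splicing, in which a splice donor is joined to a splice acceptor that lies upstream of it, at the start of the same or an earlier exon. The product has no free ends, which protects it from exonucleases such as RNase R, and the only sequence that tells it from the linear transcript is the back-splice junction. The first exon of a transcript has no splice acceptor and the last has no donor, so circRNAs are built from internal exons, and exon 2, which follows a long first intron in many genes, is a frequent starting exon. Several circRNAs can arise from 1 gene by sharing an acceptor or a donor. Cadmium is a toxic metal and a recognised human lung carcinogen, and BEAS-2B cells are widely used to follow the effects of long, low exposure.

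The back-splice junctions of 10 circRNAs that carry the results are printed first. Each line gives the last 20 bases of the donor exon in lower case and then the first 20 bases of the acceptor exon in capitals, read 5′ to 3′ on the strand of the gene from the transcripts of GENCODE 29 (GRCh38). Both sides of each junction are coding sequence. The VAPA pair is shown because 1 of them passed the test, and the ZCCHC2 junction because its gene's sum passed. The MIB1 and PPP4R1 sets are shown because their members share an acceptor or a donor. NARS is the 1 circRNA of the chromosome that was higher in cadmium at an unadjusted p under 0.05.
VAPA exons 2 to 4, hsa_circ_0006990: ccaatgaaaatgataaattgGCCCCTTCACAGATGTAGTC
VAPA exons 2 to 6, hsa_circ_0046909: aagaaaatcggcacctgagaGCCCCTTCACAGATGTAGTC
ZCCHC2 exons 2 to 5, hsa_circ_0000854: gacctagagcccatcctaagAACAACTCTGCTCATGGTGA
MIB1 exons 2 to 6, hsa_circ_0000835: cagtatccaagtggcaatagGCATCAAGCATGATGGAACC
MIB1 exons 2 to 9, hsa_circ_0047098: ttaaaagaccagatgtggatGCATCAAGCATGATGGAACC
MIB1 exons 5 to 6, hsa_circ_0008190: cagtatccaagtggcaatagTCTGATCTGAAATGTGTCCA
PPP4R1 exons 7 to 9, hsa_circ_0046876: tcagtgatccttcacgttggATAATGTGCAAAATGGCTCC
PPP4R1 exons 3 to 9, hsa_circ_0009022: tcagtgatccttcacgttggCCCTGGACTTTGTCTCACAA
PPP4R1 exons 3 to 9, hsa_circ_0007509: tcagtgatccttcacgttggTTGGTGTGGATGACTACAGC
NARS exons 3 to 6, hsa_circ_0047769: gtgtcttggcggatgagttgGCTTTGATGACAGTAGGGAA

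The capitals show the shared acceptors: both VAPA circRNAs begin at the same exon 2 acceptor, as do the first pair of MIB1. The lower-case bases show the shared donors: the 3 PPP4R1 circRNAs all end at the donor of exon 9, and hsa_circ_0009022 and hsa_circ_0007509 differ only in which of 2 acceptors of exon 3 they use. The MIB1 circRNA of exons 5 to 6 shares its donor with that of exons 2 to 6.

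Of the 245 circRNAs, 88 lie on the short arm and 157 on the long arm, with none in the 6.90 Mb between 14085076 and 20982763 (GRCh38, counted from 1), which holds the centromere. The first along the chromosome is novel_circ_0013637 of USP14, which encodes a deubiquitinase of the proteasome and starts at 162983. The last is hsa_circ_0006002 of PQLC1, which ends at 79935598. By the authors' classes 232 are exonic, 13 are intronic and 0 are intergenic. They come from 79 host genes, leaving aside 2 circRNAs with more than 1 host, which gives 3.08 circRNAs per host against 2.55 over all chromosomes. MIB1 has the most (15), followed by CEP192 (13), PPP4R1 (12) and PTPRM (10), and 32 hosts have 1.

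The circRNAs of chromosome 18 were somewhat longer than the rest, with a median spliced length of 436 bases (interquartile range 306 to 731) against 380 (304 to 534) over all 9857. A start or end shared with another listed circRNA was found for 163 of them (66.5%, against 59.7% of all). Both ends lay on the exon bounds of 1 GENCODE 29 transcript for 220. Of these, 79 (35.9%) began at exon 2 and 0 at exon 1, 10 were a single exon, the median held 3.5 exons and the longest 14. Coding sequence alone made up 176 of the 220, coding sequence with part of a UTR 41, UTR alone 1, and 2 held no coding sequence. Their median GC content was 43.2%, from 35.9% to 63.6%. For 193 of the 220 the length of these exons equalled the deposited spliced length, and the exons inside the other circRNAs were not settled. Each circRNA has 1 junction whatever its length, so junction reads were compared between circRNAs with no length term.

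Library totals ran from 133185 to 225769 junction reads, of which chromosome 18 gave 7952, 4991 and 5783 in the control libraries and 3952, 3809 and 4628 in the cadmium libraries (replicates 1 to 3). The number of its circRNAs above 0 was 240, 235 and 235 in control and 207, 210 and 218 in cadmium. These numbers depend on the library totals too, and the same numbers over all chromosomes were not worked out. Above 0 in all 6 libraries were 62.9% of its circRNAs and 61.8% of all listed. Control replicates 1 and 3 stood apart from the other 4 libraries in the weighted junction share of the circRNA loci. This share counts each junction read 2 times and sets the result against itself plus the reads that do not cross the junction. It covers circRNAs with a value in every library and is not the plain percentage of reads. Over all chromosomes it was 46.1% and 48.9% in these libraries, against 29.2% in control replicate 2 and 29.98%, 31.7% and 30.3% in cadmium. On chromosome 18 the libraries were closer, at 47.9%, 38.8% and 50.9% in control and 43.5%, 41.7% and 41.9% in cadmium, with control replicate 2 the lowest. For this reason the results below are also given without these 2 libraries where a call or a direction changes. The epithelial label could not be checked, since none of 8 airway epithelial marker genes was a host of a listed circRNA, nor any of 4 blood or 4 endothelial markers. Of 8 fibroblast or mesenchymal markers only ZEB1 was a host, at 315 to 382 CPM (junction reads scaled to a common library size by edgeR) in control and 221 to 327 in cadmium.

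The circRNAs of chromosome 18 took up a smaller part of all junction reads in cadmium. Control replicates 1 to 3 had shares of 3.52%, 3.62% and 3.50%, and the cadmium libraries 2.97%, 2.81% and 2.89%. Every cadmium library was below every control library. The mean went from 3.55 ± 0.0641% to 2.89 ± 0.0800% (SD, n = 3 each), a ratio of 0.814. In bulk RNA, fewer cells that make a circRNA and less of it per cell cannot be told apart. Both arms showed this. The short arm held 1.78%, 1.80% and 1.72% in control against 1.44%, 1.36% and 1.46% in cadmium (ratio 0.804), and the long arm 1.74%, 1.82% and 1.78% against 1.53%, 1.45% and 1.43% (ratio 0.824).

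**Figure D1:**
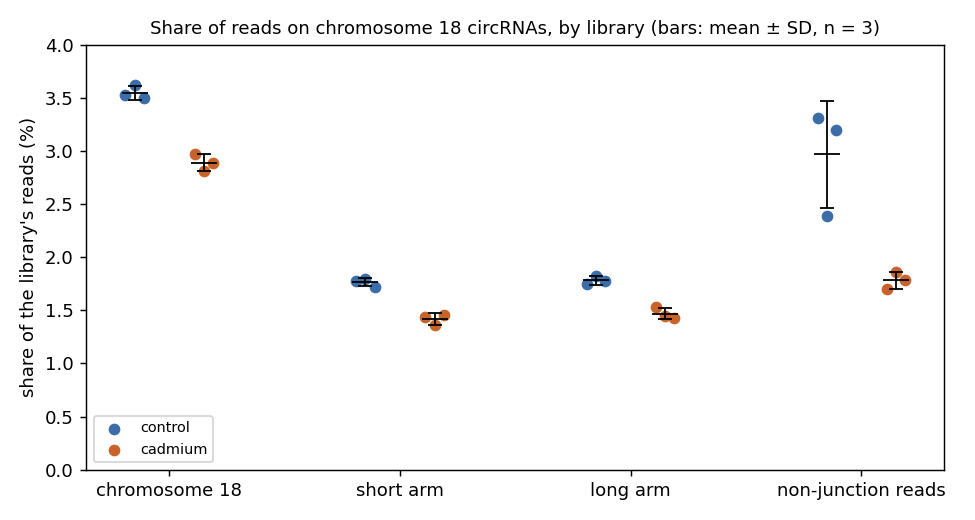
Share of reads that came from chromosome 18 circRNAs, in percent, for all junction reads, for each arm, and for non-junction reads. The non-junction set covers the 154 chromosome 18 circRNAs with a value in every library, as a share over all such circRNAs. Points are libraries and bars are mean ± SD (n = 3); the 3 cadmium points lie below the 3 control points in each set, and the non-junction control points, from 2.39% to 3.31%, are the most spread.

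The lower share did not rest on the most abundant circRNAs alone, though they carried much of it. The difference was -0.659 percentage points with all circRNAs and -0.337 without the 10 most abundant. Without hsa_circ_0006990 of VAPA the ratio of the group means was 0.834, and without the 10 most abundant circRNAs the share was 2.08% in control and 1.74% in cadmium, a ratio of 0.838. Among the 23 chromosomes with at least 50 circRNAs tested, this ratio was lowest on chromosome 18, followed by chromosome 22 (0.866), and highest on chromosome 19 (1.215). By the median log2 fold change of circRNAs, chromosome 22 was lowest (-0.31) and chromosome 18 next (-0.22). The chromosome was picked for this position, so the order is a description of these 6 libraries.

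Of the 245 circRNAs, 167 had enough reads to be tested, 64 on the short arm and 103 on the long arm. Among these the median log2 fold change (cadmium minus control) was -0.22, with an interquartile range of -0.50 to 0.06, and 111 were below 0 (66.5%). Over all 6182 circRNAs tested the median was 0.01 and 49.3% were below 0. Within chromosome 18 the median was -0.16 on the short arm (40 of 64 below 0) and -0.26 on the long arm (71 of 103 below 0). The lower values were found at every level of abundance. The median was -0.27 for 53 circRNAs under 50 CPM, -0.16 for 82 between 50 and 200 CPM, and -0.31 for 32 at 200 CPM or more, of which 26 were below 0.

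**Figure D2:**
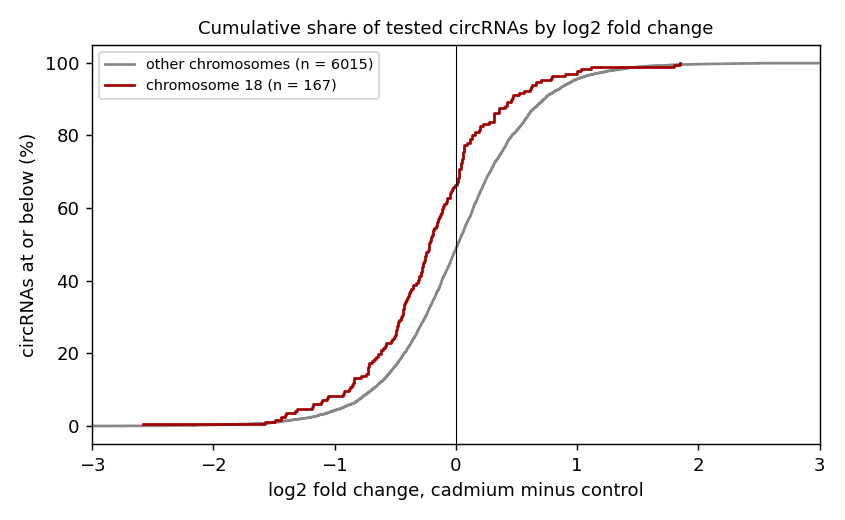
Cumulative share of circRNAs (percent, vertical axis) at or below each log2 fold change of cadmium minus control (horizontal axis), for the 167 tested circRNAs of chromosome 18 and the 6015 of the other chromosomes. The chromosome 18 line lies to the left over most of its range and has passed 66.5% at 0, where the other chromosomes have reached 48.8%.

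By edgeR's quasi-likelihood test with Benjamini-Hochberg adjustment over all circRNAs, 1 of the 167 was lower with cadmium at an adjusted p under 0.05 and 0 were higher. Over all circRNAs tested 0.0809% were called in either direction, every one of them lower, and 0% higher. At an unadjusted p under 0.05, 18 were lower and 1 was higher, where the shares over all circRNAs tested were 3.88% and 4.32%. The cadmium libraries all lay below the controls for 26 circRNAs and all above for 6, where the shares over all circRNAs tested were 7.78% and 7.52%. With reads summed per host gene, 2 of 70 hosts were lower at an adjusted p under 0.05 (0.199% of all hosts tested) and 0 were higher (0.0332%). At an unadjusted p under 0.05, 13 hosts were lower (6.58% of all) and 0 higher (5.88%), and the cadmium libraries lay below all controls for 14 hosts (10% of all) and above for 0 (9.28%). The host median was -0.27, with 53 of 70 below 0 (75.7%), against 0.00 and 50% over all 3008 hosts. Because the chromosome was selected on this contrast, nothing beyond these values is read from the counts.

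In single libraries the difference was seen in the median of the set. The median of the 167 circRNAs, on the log2(CPM + 2) scale relative to the control mean of each circRNA, was 0.05, 0.03 and -0.03 in control and -0.20, -0.09 and -0.16 in cadmium. The same median over all 6182 circRNAs was 0.05, 0.00 and 0.01 in control and 0.06, 0.05 and 0.08 in cadmium. Each cadmium library was thus below each control library on chromosome 18, by amounts that are small beside the difference in VAPA given below.

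Along the chromosome the median was below 0 in 7 of the 8 windows of 10 Mb. From 0 to 10 Mb, where 36.8% of the chromosome's reads arose, it was -0.16 for 41 circRNAs. It was -0.19 from 10 to 20 Mb (23 circRNAs), -0.43 from 20 to 30 Mb (27), -0.25 from 40 to 50 Mb (18) and -0.17 from 50 to 60 Mb (22). The lowest, -0.85, was found from 60 to 70 Mb, but over only 9 circRNAs, and it was -0.35 from 70 to 80 Mb (16). The exception was 30 to 40 Mb, where the median of 11 circRNAs was 0.12 and 5 were below 0. No circRNA of that window had an unadjusted p under 0.05.

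**Figure D3:**
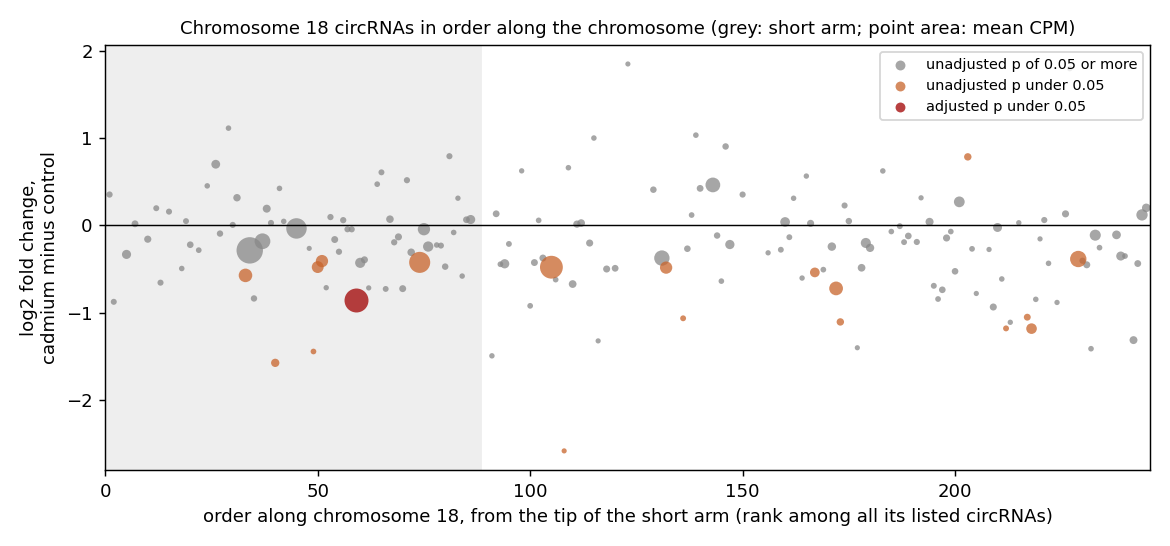
Log2 fold change (cadmium minus control, vertical axis) of each tested circRNA of chromosome 18 in order of its start along the chromosome (horizontal axis). Points are the 167 tested circRNAs, with their area showing mean CPM, their colour the p-value and a grey ground the short arm. Most lie below 0 on both arms, and the red point with an adjusted p under 0.05 is hsa_circ_0006990 of VAPA, at -0.85.

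The smallest p-value of the chromosome belonged to VAPA, which encodes an endoplasmic reticulum membrane protein that tethers lipid transfer proteins at contact sites with other organelles. Its main circRNA, hsa_circ_0006990, joins exons 2 to 4 (chr18:9931810-9937066, plus strand, 338 bases, all coding) and ranked 35th by abundance of the 9857. It had 2572, 2931 and 2394 CPM in control and 1487, 1398 and 1480 CPM in cadmium, from 572, 404 and 398 and 201, 193 and 232 junction reads. The groups were well separated, the lowest control being far above the highest cadmium library. The circRNA fell from 2632 ± 273 to 1455 ± 49.5 CPM (SD, n = 3 each), a log2 fold change of -0.85 with a standard error of 0.13 (edgeR adjusted p = 0.0201). The authors' deposited table gives it a log2 fold change of -0.83, and it is the only chromosome 18 circRNA with an adjusted p under 0.05 there, of 6 in all. That table marks 11 chromosome 18 circRNAs as significant, so the authors' mark did not require this threshold.

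The longer VAPA circRNA, hsa_circ_0046909, runs from the same acceptor through exon 6 (chr18:9931810-9950568). It had 423, 363 and 277 CPM in control and 281, 290 and 223 in cadmium, so that the groups overlapped, and its log2 fold change of -0.43 ± 0.23 (SE) did not pass (edgeR adjusted p = 0.664). The sum of both fell from 3060 ± 271 to 1762 ± 53.0 CPM, which is -0.80 ± 0.12 (SE) on the log2 scale, at an adjusted p of 0.00482 by edgeR. This call was kept in 3 of the 6 fits that left out 1 library and lost without control replicate 1 (edgeR adjusted p = 0.0944), cadmium replicate 1 (0.0606) or cadmium replicate 2 (0.0591), and without control replicates 1 and 3 together (0.157). The adjusted p of hsa_circ_0006990 ran from 0.00791 to 0.278 when each library was left out in turn. It stayed under 0.05 only without cadmium replicate 3, and without control replicates 1 and 3 it was 0.458 with a log2 fold change of -1.02. Of the hosts near VAPA, the sum of RAB31 had a log2 fold change of -0.05 and that of NAPG -0.47, both with overlapping groups, and that of PPP4R1, beyond RAB31, was -0.42 with all cadmium libraries below all controls.

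**Figure D4:**
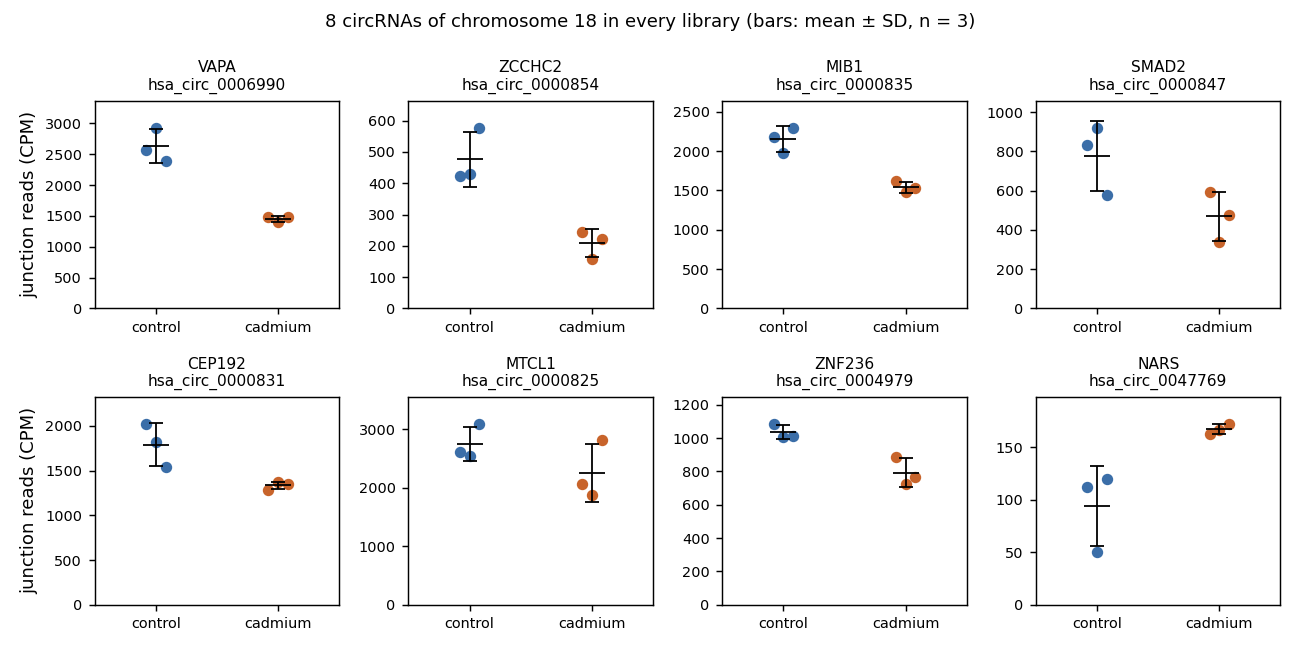
Junction reads (CPM, linear axis from 0) of 8 chromosome 18 circRNAs in every library; points are libraries and bars are mean ± SD (n = 3). VAPA, ZCCHC2, MIB1, CEP192 and ZNF236 have all cadmium points below all control points, NARS has all above, and the groups overlap for SMAD2 and MTCL1.

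ZCCHC2, which encodes a zinc finger protein, gave 1 circRNA, hsa_circ_0000854, of exons 2 to 5 (chr18:62539681-62550460, plus strand, 374 bases, all coding). It had 423, 428 and 578 CPM in control and 244, 159 and 223 in cadmium, from 94, 59 and 96 and 33, 22 and 35 reads. All cadmium libraries were below all controls, with means of 476 ± 87.9 and 209 ± 44.2 CPM. Its log2 fold change was -1.18 ± 0.23 (SE), with an unadjusted p of 0.000166 and an edgeR adjusted p of 0.129 among circRNAs. The same reads tested among host genes, where fewer features are adjusted for, fell by 1.19 on the log2 scale with an adjusted p of 0.0494, which lies just under the threshold. The call was kept in 1 of the 6 fits that left out a library, without cadmium replicate 3, and the adjusted p was 0.533 without control replicates 1 and 3.

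Most other hosts within a few megabases of ZCCHC2 were also lower by value, though none passed. PIGN, which encodes an enzyme of GPI anchor synthesis, summed over 2 circRNAs to 138, 110 and 138 CPM in control and 53.3, 67.8 and 51.3 in cadmium. These groups were apart, and the log2 fold change was -1.17 ± 0.36 (SE; edgeR adjusted p = 0.204). TNFRSF11A, the gene of the receptor RANK, had 166, 190 and 163 CPM against 98.9, 22.6 and 128, with a wide spread in cadmium and a log2 fold change of -1.02 (adjusted p = 0.333). PHLPP1, a phosphatase that acts on AKT, was at -0.86 with a 0 in cadmium replicate 2. The remaining hosts here had smaller values with overlapping groups. They were -0.44 for VPS4B, of membrane scission, -0.29 for KIAA1468, -0.15 for BCL2, the apoptosis inhibitor, and 0.05 for KDSR, of sphingolipid synthesis. VPS4B had a 0 in cadmium replicate 2 and BCL2 a 0 in cadmium replicate 1.

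MIB1, which encodes a ubiquitin ligase that acts on Notch ligands, held 15 circRNAs. The most abundant, hsa_circ_0000835 of exons 2 to 6 (chr18:21765772-21779685, plus strand, 679 bases, all coding), had 2181, 1973 and 2298 CPM in control and 1620, 1485 and 1525 in cadmium. Every cadmium library was lower, with means of 2151 ± 164 and 1543 ± 69.3 CPM. The log2 fold change of -0.48 ± 0.13 (SE) had an unadjusted p of 0.0027 and did not pass after adjustment (edgeR adjusted p = 0.389). The sum over the gene behaved alike, at -0.42 ± 0.11 (edgeR adjusted p = 0.186, and 0.0224 with DESeq2).

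The 8 MIB1 circRNAs that share the exon 2 acceptor together had 606, 344 and 445 reads in control and 252, 252 and 300 in cadmium. Of the 6 tested, 5 were below 0. At the low end hsa_circ_0047098 (exons 2 to 9) had 14, 5 and 6 reads in control and 3, 0 and 0 in cadmium, a log2 fold change of -2.58 ± 1.09 (SE; edgeR adjusted p = 0.545). Without cadmium replicate 1 its cadmium reads are all 0 and the fitted value was -5.95, which is no measure of size. hsa_circ_0000836 (exons 2 to 12) was at -0.67. At the other end hsa_circ_0007504 (exons 2 to 10) had 8, 3 and 6 reads in control and 6, 6 and 10 in cadmium, which relative to library size is higher in every cadmium library, with a log2 fold change of 0.66 that did not pass. The 2 tested circRNAs that use the exon 6 donor with a later acceptor had fitted values near 0. That of hsa_circ_0008741 was imprecise, from -0.36 to 0.64 with 1 library left out. hsa_circ_0008190 of exons 5 to 6 had 144, 123.3 and 162 CPM in control and 163, 123.1 and 153 in cadmium (0.03 ± 0.29, SE), and hsa_circ_0008741 of exons 4 to 6 was at 0.01 ± 0.44. The difference between circRNAs of 1 gene was not tested. Low reads limit the rest of the gene: hsa_circ_0047096, hsa_circ_0004578 and novel_circ_0013710 were at -0.37, -0.62 and -0.20, hsa_circ_0047123 at 0.9995 and hsa_circ_0002608 at -1.32 (-5.74 without cadmium replicate 3, where its cadmium reads are all 0), and hsa_circ_0006918, hsa_circ_0047097, novel_circ_0013707 and hsa_circ_0047125 had too few reads to be tested.

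CEP192, which encodes a scaffold protein of the centrosome, held 13 circRNAs, 7 of them starting at the exon 2 acceptor. The main one, hsa_circ_0000831 of exons 2 to 9 (chr18:12999421-13019206, plus strand, 1054 bases), had 2019, 1814 and 1534 CPM in control and 1287, 1369 and 1346 in cadmium. The lowest control was above the highest cadmium library by a small margin, and the log2 fold change was -0.42 ± 0.14 (SE; edgeR adjusted p = 0.436). The other circRNAs of the gene went in both directions, and of all 11 tested in the gene 8 were below 0. From the same acceptor, novel_circ_0013578 was at -0.04, hsa_circ_0046999 at -0.24, hsa_circ_0000830 at -0.31 and the short hsa_circ_0046995 at 0.52, while hsa_circ_0046997 and the intronic novel_circ_0013583 had too few reads. From later acceptors, hsa_circ_0000832 was at -0.47, novel_circ_0013598 and novel_circ_0013601 both at -0.23, hsa_circ_0002875 at -0.08, hsa_circ_0005863 at 0.31 and hsa_circ_0047021 at 0.79, all with overlapping groups. The sum over the gene was 3532, 3692 and 2715 CPM in control and 2693, 2902 and 2598 in cadmium, which overlap, and differed by -0.28 on the log2 scale, with an edgeR adjusted p of 0.384.

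PPP4R1, on the minus strand, encodes a regulatory subunit of protein phosphatase 4. Its sum over 12 circRNAs was 1803, 1722 and 1618 CPM in control and 1377, 1357 and 1123 in cadmium. The groups were apart, at a log2 fold change of -0.42 ± 0.13 (SE; edgeR adjusted p = 0.212). Of the 10 tested, 8 were below 0, and the 4 lowest were those that end at the exon 9 donor (position 9583117). These 4 had 274, 164 and 188 reads in control and 131, 122 and 106 in cadmium. hsa_circ_0046876 of exons 7 to 9 had 80.9, 65.3 and 66.2 CPM in control and 29.6, 36.2 and 12.8 in cadmium (-1.44 ± 0.51, SE), hsa_circ_0009022 and hsa_circ_0007509 of exons 3 to 9 were at -0.48 ± 0.21 and -0.41 ± 0.18, each with all cadmium libraries below all controls, and the intronic hsa_circ_0003080 was at -0.71 with overlap. None passed after adjustment (edgeR adjusted p of 0.436 for hsa_circ_0046876, 0.568 for hsa_circ_0009022 and 0.557 for hsa_circ_0007509).

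The PPP4R1 circRNAs that end at the exon 6 donor instead, hsa_circ_0046881, hsa_circ_0046882 and hsa_circ_0046883, were at 0.09, -0.16 and -0.30 with overlapping groups. Others of the gene, novel_circ_0014493, hsa_circ_0006707 and novel_circ_0014480, were at 0.06, -0.05 and -0.26. Grouped by acceptor instead, all 4 tested circRNAs of 1 exon 3 acceptor (position 9595153), which use different donors, were below 0, from -0.41 to -0.05. As in MIB1, whether circRNAs of the 2 donors differ was not tested. novel_circ_0014477 and novel_circ_0014479 had too few reads for a fit. The reads of novel_circ_0014479 were 8, 3 and 12 in control and 0, 0 and 4 in cadmium.

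**Figure D5:**
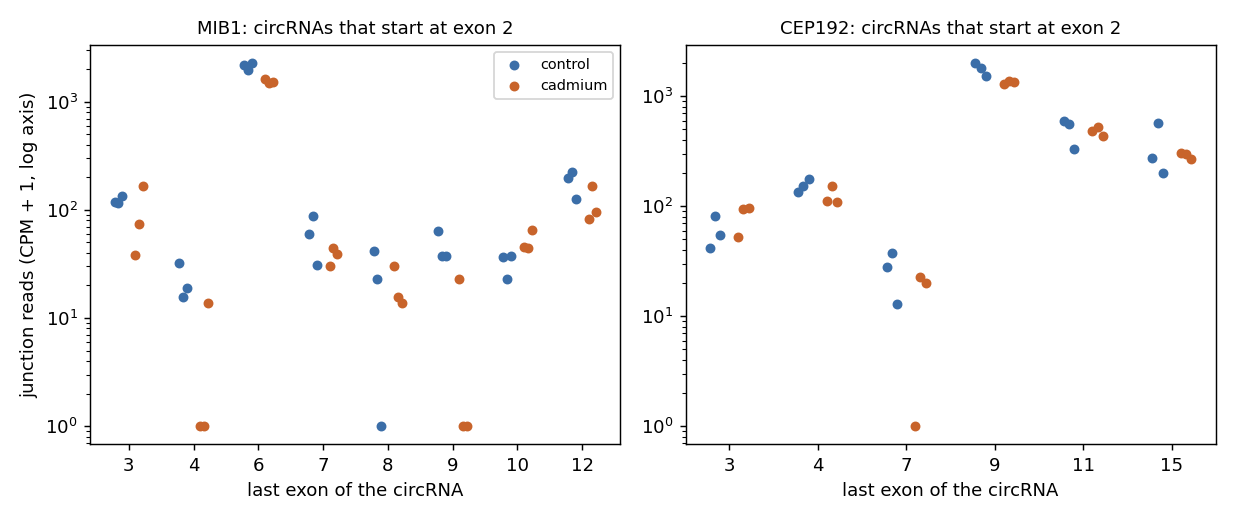
Junction reads (CPM + 1, log axis) of the exonic circRNAs that start at exon 2 of MIB1 (left) and of CEP192 (right), by their last exon (horizontal axis). Points are libraries, 3 per group, and a point at 1 is a 0. The circRNAs ending at exon 6 of MIB1 and at exon 9 of CEP192 are the most abundant and have all cadmium points below all control points, while the MIB1 circRNA ending at exon 10 has all cadmium points above.

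SMAD2, a transducer of TGF-beta signals on the minus strand, had 2 circRNAs with low p before adjustment. hsa_circ_0000847 of exons 2 to 6 (chr18:47865059-47896809) had 832, 921 and 578 CPM in control and 592, 340 and 479 in cadmium, where 1 cadmium library exceeded 1 control, at a log2 fold change of -0.72 ± 0.23 (SE; edgeR adjusted p = 0.435). hsa_circ_0007523, classed as intronic (chr18:47889021-47896809), had 166, 232 and 138 CPM against 111, 79.7 and 57.4, with no overlap, at -1.11 ± 0.35 (adjusted p = 0.435). The host sum of 4 circRNAs was at -0.61 ± 0.17 (edgeR adjusted p = 0.204), with overlapping groups. All 4 were tested and 3 were below 0. The exception, from the same exon 2 acceptor, was at 0.23.

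MTCL1, which encodes a protein that crosslinks microtubules, gave the most abundant circRNA of the chromosome, hsa_circ_0000825 of exons 3 to 4 (chr18:8718424-8720496). It had 2612, 2539 and 3086 CPM in control and 2071, 1868 and 2807 in cadmium, and cadmium replicate 3 lay within the control range. Its log2 fold change was -0.29 ± 0.16 (SE; edgeR adjusted p = 0.669). novel_circ_0014436, which ends at the same donor and is classed as intronic, had 697, 726 and 752 CPM against 466, 377 and 613, with no overlap, at -0.57 ± 0.19 (adjusted p = 0.436). The 8 most abundant circRNAs, among them those of MTCL1, VAPA, MIB1, CEP192, ZNF236, ANKRD12 and TTC39C, gave 37.4% of the chromosome's junction reads.

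The leading circRNAs of ANKRD12, ZNF236 and TTC39C differed by less than 0.4 on the log2 scale. ANKRD12, which encodes an ankyrin repeat protein, had 994, 1132 and 560 CPM against 858, 753 and 753 for hsa_circ_0000826, at -0.18 with overlap. For ZNF236, a zinc finger gene, hsa_circ_0004979 had 1084, 1008 and 1011 CPM against 887, 724 and 766, without overlap, at -0.39 ± 0.15 (SE; edgeR adjusted p = 0.522). All 5 ZNF236 circRNAs that share its exon 2 acceptor were below 0, from -1.41 to -0.11. TTC39C, which encodes a tetratricopeptide repeat protein, had 796, 827 and 1083 CPM against 710, 594 and 778 for hsa_circ_0000839 (-0.37 ± 0.18), and hsa_circ_0047270 from the same acceptor was at -0.48 ± 0.19 (edgeR adjusted p = 0.610 and 0.522). Neither TTC39C circRNA had overlapping groups.

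Among less abundant circRNAs, novel_circ_0014037 of PIAS2, which encodes a SUMO ligase, had 292, 385 and 307 CPM in control and 222, 253 and 198 in cadmium (-0.54 ± 0.23, SE; edgeR adjusted p = 0.546). hsa_circ_0007528 of PIGN was at -1.18 ± 0.46 and hsa_circ_0047880 of TNFRSF11A at -1.05 ± 0.42, both without overlap (edgeR adjusted p = 0.504 and 0.522). In the opposite direction, hsa_circ_0047769 of NARS, the gene of a cytoplasmic asparaginyl-tRNA synthetase (chr18:57611637-57615975, minus strand), had 112, 50.8 and 120 CPM in control and 163, 167 and 172 in cadmium. All cadmium libraries were higher, with a log2 fold change of 0.78 ± 0.34 that did not pass (edgeR adjusted p = 0.557). The second tested NARS circRNA, from the same acceptor, was at -0.27. The NARS sum was at 0.49 with overlapping groups (edgeR adjusted p = 0.544). At the ends of the chromosome, novel_circ_0013637 of USP14 was at 0.35 and hsa_circ_0006002 of PQLC1 at 0.20, both with overlapping groups.

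There were 5 circRNAs at 0 in all 3 cadmium libraries, or 2.04% of the 245 against 2.15% over all chromosomes. They were novel_circ_0013686 of THOC1, of the mRNA export complex THO (5, 5 and 2 control reads), novel_circ_0014477 of PPP4R1 (2, 4 and 2), novel_circ_0013633 of ZNF519 (12, 4 and 2), novel_circ_0013765 of NPC1, of cholesterol export from lysosomes (3, 2 and 3), and hsa_circ_0047370 of TRAPPC8, of a vesicle tethering complex (8, 2 and 8). All had few reads in control and no fold is given for them. The table holds no value of 1, so a 0 may stand for a single read. No chromosome 18 circRNA was at 0 in all control libraries, against 0.943% of all listed.

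Of the 79 hosts, 47 belonged to 5 lists of genes of the chromosome grouped by function. For membrane contact, lipid and vesicle traffic, 14 genes were hosts and 12 were tested, with a median host log2 fold change of -0.17 and 9 below 0, and VAPA was the 1 that passed. DYM, a Golgi protein and the next most abundant of that list, was at -0.33 with all cadmium libraries below the controls, and at -0.12 without cadmium replicate 3. For cell division, centrosome and DNA repair, 8 of 10 hosts were tested, with a median of -0.31, 6 below 0 and 4 lower at an unadjusted p under 0.05, as were 13 of the 70 hosts of the chromosome and 6.58% of all hosts tested. The 4 were MIB1, CEP192, ESCO1, which acetylates cohesin (-0.69), and RBBP8, of DNA end resection (-0.47). MIB1, described above as a ubiquitin ligase, was counted in this list only. Of 3 RBBP8 circRNAs tested, 2 were below 0. Their values ran from -0.50 to 1.85, the highest of any circRNA tested on the chromosome. For chromatin and transcription the median of 8 tested hosts was -0.27 with 6 below 0, ZNF236 at -0.34 and ANKRD12 at -0.32. The ANKRD12 sum includes a doubtful 0 in cadmium replicate 2 for hsa_circ_0003652 (61, 37 and 47 control reads against 15, 0 and 25). The same holds for hsa_circ_0046841 (25, 16 and 12 against 14, 0 and 10).

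The remaining lists held no gene that passed. For adhesion, junction and cytoskeleton the median of 5 hosts was -0.23 with 4 below 0. There PTPRM, a receptor tyrosine phosphatase, was at 0.24 and ARHGAP28, a GTPase-activating protein, at -0.23 (0.0491 without control replicate 3), with overlapping groups. The PTPRM circRNA with the most reads, hsa_circ_0006114 (37.3% of them), had 40, 0 and 50 reads in control and 37, 34 and 45 in cadmium, where the 0 is doubtful. The PTPRM sum was at 0.13 without control replicate 1, 0.11 without control replicate 2 and 0.49 without control replicate 3. For signalling, ubiquitin and cell death the median of 9 hosts was -0.22 with 8 below 0. In that list SMAD2 was at -0.61 and RNF138, a ubiquitin ligase, was the exception at 0.41. RNF138 had 595, 930 and 621 CPM in control and 1065, 1138 and 635 in cadmium, which overlap, and its value was -0.00629 without control replicates 1 and 3. The medians of the 5 lists lay between -0.31 and -0.17, near the median of all hosts of the chromosome (-0.27). Of 34 hosts with at least 2 tested circRNAs, 10 had all of them below 0, 1 had all above and 23 had both signs.

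Reads of the circRNA loci that do not cross the junction were also deposited for each circRNA. Over 154 circRNAs with a value in every library, chromosome 18 held 3.31%, 2.39% and 3.20% of these reads in control and 1.70%, 1.86% and 1.78% in cadmium, a ratio of the means of 0.601. The same circRNAs held 3.56%, 3.69% and 3.47% of junction reads in control and 3.06%, 2.87% and 2.95% in cadmium. In both kinds of read all cadmium libraries were below all controls, and control replicates 1 and 3 were the highest in non-junction reads. With 1 value per host and at least 20 mean reads, the median log2 difference in non-junction reads was -0.34 over 38 hosts of chromosome 18, with 27 below 0 (71.1%), and -0.08 over all 1838 hosts, with 56.8% below 0. Control replicate 2 was the 1 control library whose weighted junction share over all chromosomes was like that of the cadmium libraries. Against it alone, the median was -0.34 with 32 below 0 (84.2%), and -0.14 with 65.0% over all hosts. Overlapping circRNAs can share these reads, and what they hold after RNase R digestion (circRNA interiors or linear RNA that was left) cannot be told apart.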

How the data were processed

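Junction reads of 3 control and 3 cadmium libraries were analysed. The members and gene lists were chosen with earlier results of these data known. The counts deposited by the authors are unnormalised numbers of reads across each back-splice junction in each library; 0 columns belonged to other samples. The authors' deposited TPM values scale these counts to the library total with no length term, and served in 1 alternative. The authors' deposited comparison gives log2 fold changes and p-values, together with group means of normalised reads, a signal without replicates. It was read only where it is named. Per the submitters' processing notes the tools included Bowtie2 2.2.8, Bowtie and DESeq 1.10.1, and the build was hg19; which program called circRNAs is not given. The positions follow GRCh38: of 232 exonic circRNAs, 228 starts (98.3%) and 228 ends (98.3%) lie on exon bounds of GENCODE 29. Identifiers with 2 annotation entries (2 on chromosome 18, with the same reads) were used once.

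Counts were tested over the whole table with edgeR 4.0.16 in R 4.3.3 (quasi-likelihood test, TMM factors, robust fit, filterByExpr with minimum count 5 and minimum total 15, Benjamini-Hochberg adjustment, threshold 0.05), for 6182 circRNAs and for 3008 sums over circRNAs with a single host gene. Values are CPM on TMM library sizes, as mean ± SD. Standard errors were worked back from the F statistic, as log2 fold change divided by its root. As alternatives, DESeq2 1.42.0, limma 3.58.1 on log2(TPM + 1), RLE factors, no factors beyond library totals, no or a stricter filter, a block for replicate number and 1 library left out were run, and, chosen after seeing the data, no control replicates 1 and 3, no circRNA with a doubtful 0 (10 or more reads implied by the other libraries) and 1 circRNA per host. Named were circRNAs or hosts that passed, up to 16 circRNAs with the smallest unadjusted p under 0.05, the 8 most abundant, all of VAPA, ZCCHC2 and the 3 hosts with most circRNAs, the 2 most abundant hosts per list, those at 0 in a group, and the first and last along the chromosome. The neighbours of VAPA and ZCCHC2, ESCO1, RBBP8, hsa_circ_0006114, hsa_circ_0009022, hsa_circ_0003652 and hsa_circ_0046841 were named after their values were seen. Values of 1 circRNA that the rule names are not reported here. Reads carry no molecular identifiers and are not independent molecules.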

Additional observations from a re-analysis of the deposited data

How the results depend on the processing

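The 1 circRNA called became 0 with limma on log2(TPM + 1) and 0 with the replicate block, and ran from 0 to 1 with 1 library left out. Without control replicates 1 and 3 the count was again 1, but hsa_circ_0006114 of PTPRM, a circRNA with a doubtful 0, in place of that of VAPA. The 2 host sums called became 0 with limma, 1 (VAPA) with the replicate block, 0 without control replicates 1 and 3, and 0 to 2 with 1 library left out; DESeq2 called VAPA and MIB1 and gave no adjusted p for ZCCHC2. Deviations from the group means had correlations of 0.000205, 0.0216 and 0.0517 between same-numbered libraries, and of -0.0447 to 0.0261 between differently numbered ones. Values this small cannot settle whether the replicate numbers pair the libraries. The 19 circRNAs at an unadjusted p under 0.05 became 30 with no filter, 8 with DESeq2, 9 with limma and 11 to 24 with 1 library left out. The lowest, 11, of which 9 were lower in cadmium, was without control replicate 1, and without control replicates 1 and 3 the count of 15 held 9 lower and 6 higher. The median of -0.22 was -0.30 with no filter, -0.28 without control replicates 1 and 3, and -0.26 to -0.20 with 1 library left out. The difference in share of -0.659 percentage points was -0.547 without the called circRNA and -0.699 to -0.618 with 1 library left out.

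For the circRNAs and hosts named by the rule, 796 values were compared under the alternatives. Of these, 739 kept direction and side of the threshold, 21 lost a call and 1 gained one (MIB1 with DESeq2). The other 35 changed sign, all of circRNAs or hosts that had not passed. The PTPRM circRNA hsa_circ_0006114, called without control replicates 1 and 3, is not among the 796. The sign changes by setting were MIB1 hsa_circ_0008741 (-0.0235 with no filter, -0.00291 with a stricter filter, -0.0144 with DESeq2) and hsa_circ_0008190 (-0.0101 with no filter), CEP192 novel_circ_0013578 (0.0123 with limma), PPP4R1 novel_circ_0014480 (0.91 with limma) and hsa_circ_0046881 (-0.26 without control replicates 1 and 3) and the RNF138 sum (-0.00629 without them). With 1 library left out the ranges that cross 0 were -0.36 to 0.64 for hsa_circ_0008741, -0.10 to 0.11 for hsa_circ_0008190, -0.28 to 0.12 for novel_circ_0013578, -0.84 to 0.16 for novel_circ_0014480, -0.35 to 0.41 for hsa_circ_0046881, -0.72 to 0.17 for hsa_circ_0046882, -0.62 to 0.0276 for hsa_circ_0046883, -0.0857 to 0.15 for novel_circ_0014493, -0.62 to 0.25 for hsa_circ_0006707, -0.53 to 0.24 for hsa_circ_0046999, -0.72 to 0.27 for novel_circ_0013601, -0.29 to 0.0738 for hsa_circ_0002875, -0.11 to 0.74 for hsa_circ_0005863, -0.0312 to 0.36 for hsa_circ_0006002 and -0.41 to 0.0491 for the ARHGAP28 sum. The cause of these shifts was not tested. Depth limits the circRNAs below the filter, 78 of 245, which have no fold change.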
